A study of Homo sapiens with 4 samples.

Results

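Integrin and laminin genes encode the main receptors and ligands that hold cells to basement membranes, and their mRNA levels were compared between WT and Helz-null HEK293T cells. The genes were taken from a list of symbols by family membership: 26 integrin genes (18 α and 8 β subunits) and 10 laminin genes (5 α, 3 β and 2 γ chains), together 36 of the 27011 genes in the count table. HEK293T is a human embryonic kidney line. WT cells carried no edit, and Helz-null cells were the same line after CRISPR/Cas9 editing of HELZ, which encodes a putative RNA helicase that binds the CCR4-NOT deadenylase complex. The edit was a small deletion that shifted the HELZ reading frame, and the number of cell clones behind the Helz-null line was not given in the sources used here. Each cell type was sequenced as 2 biological replicates by RNA-Seq, with no further treatment. TruSeq RNA libraries were prepared from extracted total RNA, and the study's methods do not say whether polyadenylated RNA was selected.

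Integrins are heterodimers of an α and a β subunit that span the plasma membrane, bind matrix proteins outside the cell and recruit talin, kindlin and other adaptors to the β tail inside it. Laminins are cross-shaped trimers of an α, a β and a γ chain that polymerise into the sheet on which a basement membrane is built. Kidney epithelia rest on such membranes, and the switch of laminin chains and the pairing of the α8 subunit with its ligand nephronectin are known steps of kidney development.

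The libraries held 65005666 counts (WT replicate 1), 42342295 (WT replicate 2), 41745401 (Helz-null replicate 1) and 70464140 (Helz-null replicate 2). A count of 0 therefore allowed a level of up to 0.0478, 0.0732, 0.0726 and 0.043 CPM (counts-per-million, scaled to the normalized library size) in the same order, taken as 3 counts and covering counting error only. Replicates differed by more than counting noise, with a chi-square per degree of freedom of 4.16 in WT and 3.01 in Helz-null cells. The library totals exceed the number of mapped reads in the study's methods, so the mates of a read pair may have been counted separately, and the floors and chi-square values treat all counts as independent. Whether the replicates came from separate cultures was not given in the sources used here, so the p-values measure the spread between these libraries. HELZ itself (chr17:65066560-65242105, minus strand, GRCh37) had 99.8 and 104 CPM in WT and 36.98 and 37.9 CPM in Helz-null cells. Both libraries labelled Helz-null were thus below both WT libraries, at 36.8% of the WT mean (log2FC -1.44, SE 0.042, FDR 2.13e-27).

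Of 7 genes known to mark HEK293T cells, 6 had an FPKM (fragments per kilobase of gene width, with library size scaled as for CPM) above 2 in every library. The highest was the intermediate filament gene VIM, at a mean of 478.5 FPKM. The list summed to 674, 673.2, 675 and 667 FPKM in WT replicates 1 and 2 and Helz-null replicates 1 and 2. Within this sum the genes moved in opposite directions: of the 6 tested markers, NEFM was up-regulated (log2FC 0.89, FDR 1.26e-25), KRT8 (-0.98, FDR 7.13e-15), KRT18 (-0.16, FDR 0.00163) and VIM (-0.14, FDR 2.04e-05) were down-regulated, and CDH2 and NEFL were not called. The leukocyte gene PTPRC had 2 counts in WT replicate 1 and 0 in the other libraries. Endothelial markers summed to 0.0828, 0.0433, 0.138 and 0.131 FPKM in the order above, led by KDR. The fibroblast list summed to 2.68, 2.81, 2.97 and 2.70 FPKM, led by COL1A1 at 2.51 FPKM, while DCN had 0 counts in all 4 libraries. For surface epithelium the sums were 1.71, 2.03, 1.37 and 1.34 FPKM, led by CDH1. The lower Helz-null sums came from EPCAM (0.751 and 0.809 FPKM in WT, 0.225 and 0.301 in Helz-null cells), while CDH1 overlapped between groups. The part of marker differences between the groups in the changes of the members was not tested. In such bulk libraries fewer cells of a type and less RNA per cell cannot be told apart.

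The levels of the members were compared per length, as FPKM. Among β subunits, ITGB1 reached a mean of 60.9 FPKM and supplied between 87.5% and 88.8% of the summed β level in every library. ITGB5 came next at 7.43 FPKM and 10.2% to 11.5% of the sum, and the other 6 β genes lay below 0.5 FPKM. The α subunits were more evenly spread: ITGA5 gave 22.9% of their summed FPKM, ITGAV 17.8%, ITGAE 15.5% and ITGA6 10.2%, as means over the 4 libraries. LAMC1, at 36.3 FPKM, was the most abundant laminin chain and made up 92.1% to 94.8% of the γ level. LAMB1 at 12.3 FPKM was followed among β chains by LAMB2 at 6.65 FPKM. Laminin α chains were lower, with LAMA5 at 3.35 FPKM, LAMA1 at 3.17, LAMA4 at 2.37 and LAMA3 at 1.92. The FPKM of LAMA5 and LAMA1 overlapped in Helz-null cells (3.28 and 3.22 against 3.04 and 3.39) but not in WT cells (3.43 and 3.48 against 2.94 and 3.30).

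**Figure D1:**
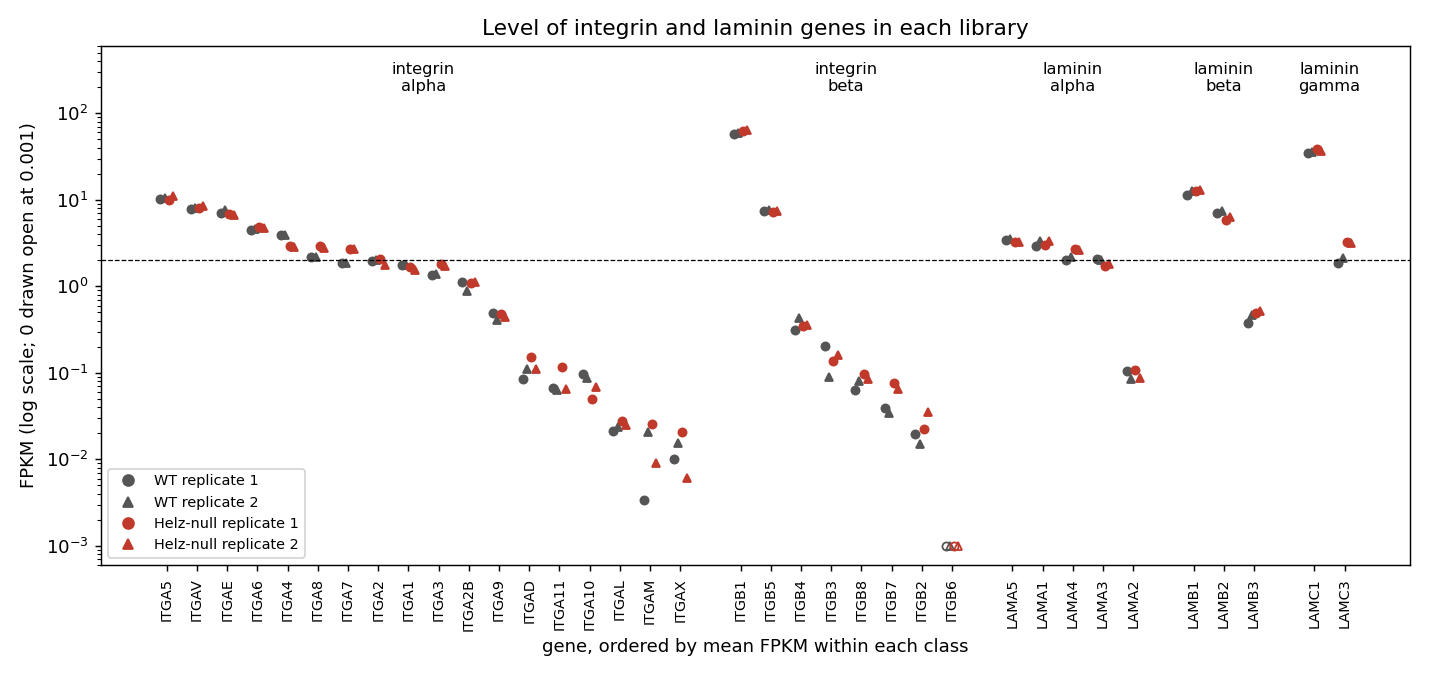
FPKM (log scale) of each of the 36 genes in each of the 4 libraries, grouped by class, with grey for WT and red for Helz-null, circles for replicate 1 and triangles for replicate 2, and a dashed line at 2 FPKM. ITGB1 (mean 60.9 FPKM) and LAMC1 (36.3 FPKM) stand above all other members, and ITGB6 is drawn open because it had 0 counts in all 4 libraries.

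Differential expression was tested with edgeR's quasi-likelihood F test on the 10978 genes that the authors had selected by FPKM, and a gene was called at an FDR (Benjamini-Hochberg) below 0.005. Of all tested genes 13.9% were called up-regulated and 15.5% down-regulated in Helz-null cells. The tested genes held 18 of the 36 members, namely 10 integrins and 8 laminins. Of the 10 tested integrins, 3 were up-regulated (ITGA7, ITGA8 and ITGB1), 1 was down-regulated (ITGA4) and 6 were not called. Of the 8 tested laminins, 3 were up-regulated (LAMA4, LAMC1 and LAMC3), 1 was down-regulated (LAMB2) and 4 were not called. The median log2FC was 0.030 for the integrins (range -0.43 to 0.53) and 0.077 for the laminins (range -0.25 to 0.70), beside -0.0009 for all tested genes. The normalized CPM of the WT and Helz-null libraries did not overlap for 7 of the 10 integrins and 7 of the 8 laminins, and 70.6% of all tested genes likewise did not overlap.

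The FPKM selection was not met alike by all tested members when FPKM was computed from the deposited width. In both cell types 14 of the 18 tested members had a mean above 2 FPKM. ITGA7 (1.88 FPKM in WT and 2.72 in Helz-null) and LAMC3 (2.00 and 3.22 FPKM) were above it in Helz-null cells only, LAMA3 (2.05 and 1.78 FPKM) in WT cells only, and ITGA2 (2.00 and 1.92 FPKM) in neither. Apart from LAMC3 (FDR 8.24e-06), no member call was kept in a test against a fold change of 1.2.

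**Figure D2:**
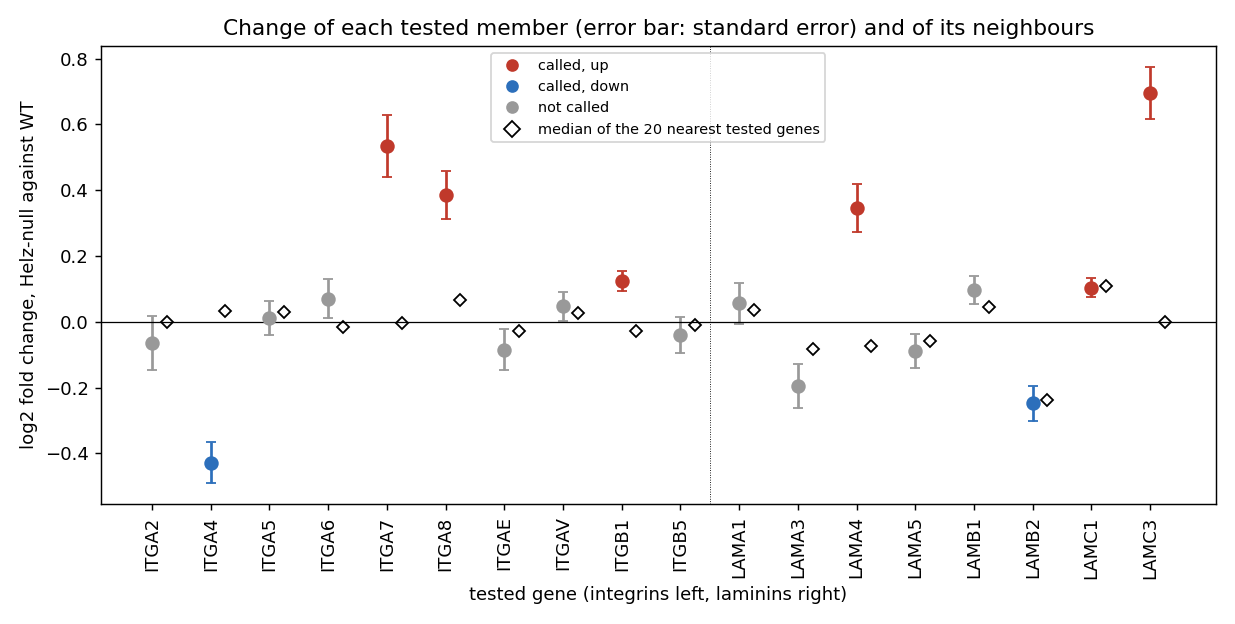
log2 fold change of Helz-null against WT cells for the 18 tested members, with the standard error as error bar, red for up-regulated, blue for down-regulated and grey for not called, and an open diamond for the median log2FC of the 20 nearest tested genes. LAMC3 (0.70) and ITGA7 (0.53) lie far above their neighbours, ITGA4 (-0.43) lies below them, and LAMB2 and LAMC1 lie close to theirs.

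ITGB1 encodes the β1 subunit, which pairs with more α subunits than any other β and so forms most receptors for laminin, collagen and fibronectin. Its cytoplasmic tail carries asparagine-proline-any-tyrosine motifs, written NPxY, of which the one nearer the membrane binds talin and the distal one kindlin. The coding sequence of the first motif of the tail is shown with 3 codons on either side, next to that of ITGB5, because these were the only tested β genes; capitals mark the 4 codons of the motif. The stretches were read on GRCh37 from the annotated coding exons, each across an exon junction on the minus strand (ITGB1 chr10:33190537-33190563 and chr10:33197296-33197298, ITGB5 chr3:124482539-124482565 and chr3:124483238-124483240).
ITGB1: acgggtgaaAATCCTATTTATaagagtgcc
ITGB5: atggcttcaAATCCATTATACagaaagcct
In the last 60 codons, ITGB1 held 2 such matches, ITGB3, ITGB5, ITGB6 and ITGB7 held 1 each, and ITGB2, ITGB4 and ITGB8 held 0 in that exact spelling.

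ITGB1 (chr10:33176201-33294720, minus strand) was measured at 233 and 243 CPM in WT and 258 and 261 CPM in Helz-null cells. Both Helz-null libraries were above both WT libraries, by a margin larger than the gap between replicates. The change was small, at a log2FC of 0.12 (SE 0.030, FDR 0.000855), which is a fold of 1.09. ITGB1 was no longer called without WT replicate 1 (log2FC 0.092), Helz-null replicate 1 (0.13) or Helz-null replicate 2 (0.11). In such fits the lone library of a group is assumed to vary like the others. ITGB5, which with αV forms a vitronectin receptor, had 32.8 and 33.3 CPM in WT and 31.7 and 32.5 CPM in Helz-null cells. These groups were apart by less than 1 CPM and ITGB5 was not called (log2FC -0.041, SE 0.055, FDR 0.578).

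Laminin-binding α subunits were represented by ITGA3, ITGA6 and ITGA7, all partners of β1. ITGA7 (chr12:56078352-56110188, minus strand), the major laminin receptor subunit of skeletal muscle, had 8.27 and 8.29 CPM in WT and 11.98 and 11.99 CPM in Helz-null cells. The Helz-null libraries were both higher and each pair of replicates nearly coincided. ITGA7 was up-regulated with a log2FC of 0.53 (SE 0.095, FDR 1.26e-05), or 1.45-fold, and its share of the summed α FPKM went from 4.21% and 4.13% in WT to 5.94% and 5.90% in Helz-null cells. Its exons overlap those of METTL7B on the opposite strand by 44 bases, and METTL7B was not called (log2FC 0.20, FDR 0.0688).

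ITGA6, the α partner of β1 or β4 in epithelial laminin receptors, had 27.4 and 27.8 CPM in WT and 29.6 and 28.4 CPM in Helz-null cells. Its Helz-null values were the higher ones without overlap, but the difference did not pass the test (log2FC 0.070, SE 0.059, FDR 0.35). ITGA3, whose product binds epithelial laminins, was outside the tested genes with 6.78 and 7.03 CPM in WT and 9.08 and 8.64 CPM in Helz-null cells. When all genes kept by edgeR's filterByExpr were tested (16087 genes, of which 21.4% were called), ITGA3 gave a log2FC of 0.35 (SE 0.10, FDR 0.00674) and was not called. It was called up-regulated when all 20904 genes with at least 1 count were tested (18.2% called), with the same log2FC of 0.35 (FDR 0.00318). Summed over ITGA3, ITGA6 and ITGA7, the laminin-binding α level was 7.73 and 7.84 FPKM in WT and 9.40 and 9.10 FPKM in Helz-null cells.

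Subunits that recognise the arginine-glycine-aspartate sequence of fibronectin, vitronectin and related ligands were ITGA5, ITGA8, ITGAV and ITGA2B. ITGA8 (chr10:15555953-15761921, minus strand), the β1 partner that binds nephronectin, had 15.1 CPM in each WT library and 20.1 and 19.4 CPM in the Helz-null libraries. Both Helz-null values exceeded both WT values. ITGA8 was up-regulated with a log2FC of 0.39 (SE 0.073, FDR 3.85e-05), or 1.31-fold. ITGA5, the fibronectin receptor subunit, had 43.5 and 44.9 CPM in WT and 41.9 and 46.7 CPM in Helz-null cells. These groups overlapped (log2FC 0.0125, SE 0.052, FDR 0.87), and the sign turned without WT replicate 1 or Helz-null replicate 2. ITGAV, which joins β1, β3, β5, β6 or β8, also overlapped between groups at 56.4 and 58.4 CPM in WT and 57.9 and 60.4 CPM in Helz-null cells (log2FC 0.047, SE 0.044, FDR 0.404). ITGA2B, the platelet fibrinogen receptor subunit, was not among the tested genes and lay between 3.03 and 3.87 CPM in all 4 libraries.

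ITGA4 (chr2:182321929-182403667, plus strand) was the down-regulated integrin gene. Its product pairs with β1 or β7 and binds VCAM1 and fibronectin. ITGA4 had 29.9 and 29.7 CPM in WT and 22.7 and 21.7 CPM in Helz-null cells, so that both Helz-null libraries were lower by far more than the replicate gap. The log2FC was -0.43 (SE 0.061, FDR 3.04e-07), a fold of 0.743, and its share of the summed α FPKM was 8.77% and 8.54% in WT and 6.47% and 6.16% in Helz-null cells. CERKL, on the opposite strand, shares 2813 exon bases with ITGA4, or 41.5% of the ITGA4 exons. Strand use in the counting was not given in the sources used here, so reads from this stretch cannot be told apart. CERKL had 5.49 and 5.05 CPM in WT and 4.98 and 4.47 CPM in Helz-null cells and was not among the tested genes. ITGA9, the relative of ITGA4 that binds tenascin-C among other ligands, had 123, 66, 78 and 121 counts in WT replicates 1 and 2 and Helz-null replicates 1 and 2, and its normalized levels overlapped between groups.

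The collagen-binding subunits ITGA1, ITGA2, ITGA10 and ITGA11, which pair with β1, included 1 tested gene. ITGA2 had 15.6 and 16.1 CPM in WT and 16.3 and 14.1 CPM in Helz-null cells. Its Helz-null values lay on either side of the WT values and it was not called (log2FC -0.065, SE 0.081, FDR 0.549). ITGA1 was measured at 8.38 and 8.37 CPM in WT and 7.99 and 7.39 CPM in Helz-null cells, with a log2FC of -0.13 (SE 0.10, FDR 0.339) among the filterByExpr genes. It shares 499 exon bases with PELO on the same strand, and reads from these bases may have been assigned to either gene. PELO had 41.0 and 40.2 CPM in WT and 34.6 and 35.6 CPM in Helz-null cells and was down-regulated (log2FC -0.21, FDR 0.00119). ITGA10 and ITGA11 had between 11 and 32 counts in any library.

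Subunits known from leukocytes had few counts except ITGAE. ITGAE, which in intraepithelial lymphocytes pairs with β7 and binds E-cadherin, came after ITGA5 and ITGAV among the α genes at a mean of 7.05 FPKM. It had 27.0 and 29.1 CPM in WT and 26.7 and 26.1 CPM in Helz-null cells. The WT libraries were both higher by a margin smaller than the gap between them, and ITGAE was not called (log2FC -0.084, SE 0.061, FDR 0.274). Its partner ITGB7 had 7 and 4 counts in WT and 9 and 13 counts in Helz-null cells, a mean of 0.0535 FPKM. Exons of ITGB7 share 1469 bases, or 52.4%, with those of ZNF740 on the opposite strand, so that even these few counts are uncertain. ITGAL, ITGAM, ITGAX and their common partner ITGB2 had between 1 and 9 counts in any library, and ITGAD, the remaining β2 partner, had 21, 18, 25 and 30 counts.

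Of the remaining β genes, ITGB4, the hemidesmosome partner of α6, ranged from 1.96 to 2.66 CPM with overlapping groups. ITGB3, which forms the platelet receptor with αIIb and the vitronectin receptor with αV, had 62 and 18 counts in WT and 28 and 55 counts in Helz-null cells. ITGB8, an αV partner that activates latent TGF-β, was at 0.557 and 0.707 CPM in WT and 0.847 and 0.746 CPM in Helz-null cells. ITGB6, the αV partner of epithelia, had 0 counts in all 4 libraries. In total 18 members were outside the tested genes (16 integrins and 2 laminins). Of these, 12 entered the filterByExpr fit with edgeR, where 0 were called and 1 (ITGA3) had an unadjusted p below 0.05; DESeq2 was not run on them. The other 6 (ITGAL, ITGAM, ITGAX, ITGB2, ITGB6 and ITGB7) had too few counts for the filterByExpr fit. Among all genes with at least 1 count 17 of the 18 were tested, and ITGA3 was the 1 called.

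**Figure D3:**
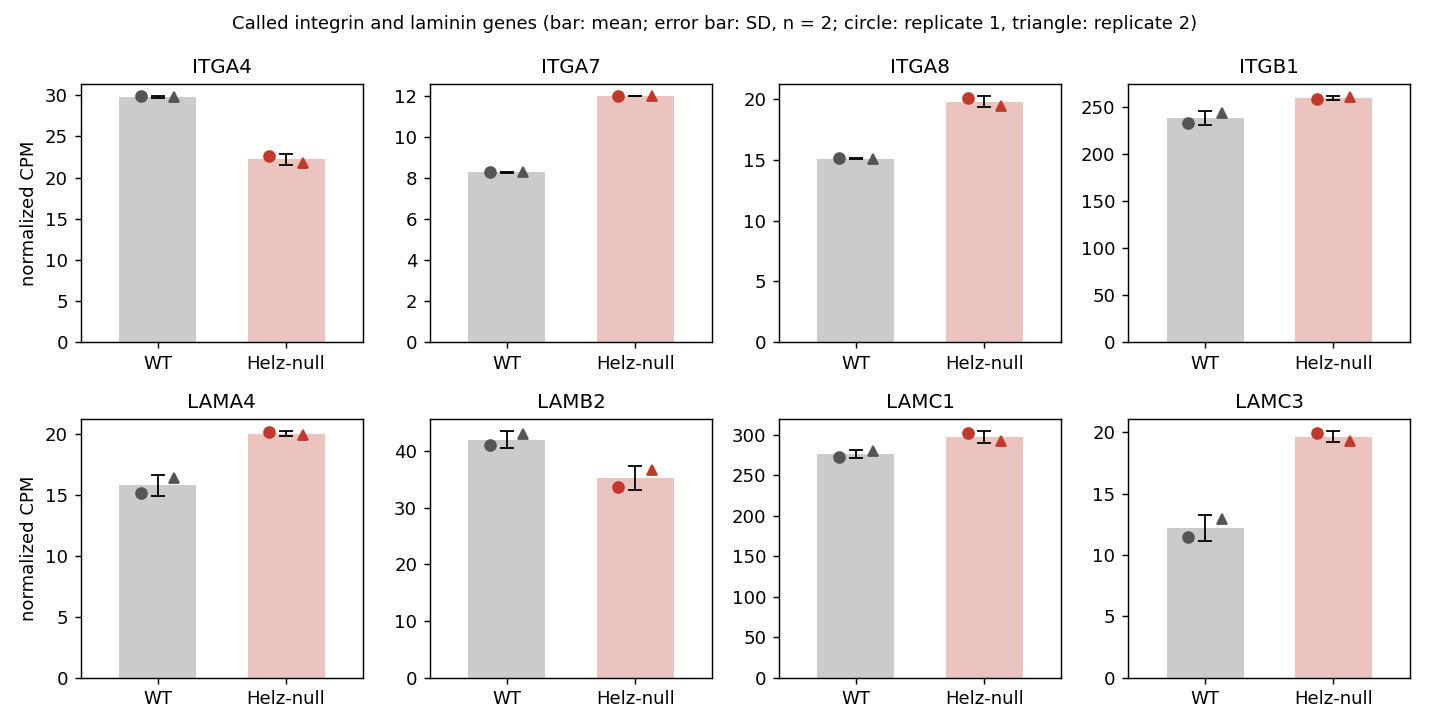
Normalized CPM of the 8 called members in each library, with bars for the group mean, error bars for the SD (n = 2), circles for replicate 1 and triangles for replicate 2, each axis starting at 0. In every panel the WT and Helz-null libraries do not overlap, and relative to its level the gap is narrowest for LAMC1 (1.07-fold) and ITGB1 (1.09-fold).

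Both γ chains of the list were up-regulated. The γ1 chain ends in a short tail whose glutamate, at the third position from the end, is required for integrin binding by laminins, and the γ3 chain lacks it. The last 10 codons and the stop codon of each gene are therefore shown, read on GRCh37 from the annotated final coding exon on the plus strand, with the third codon before the stop in capitals (LAMC1 chr1:183111893-183111925, LAMC3 chr9:133967142-133967174).
LAMC1: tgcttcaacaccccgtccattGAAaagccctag
LAMC3: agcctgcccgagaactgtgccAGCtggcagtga
The capitals spell a glutamate codon in LAMC1 and a serine codon in LAMC3.

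LAMC3 (chr9:133884561-133969860, plus strand) had the largest log2FC of the 18 tested members. It was measured at 11.5 and 12.9 CPM in WT and 19.96 and 19.3 CPM in Helz-null cells. Both Helz-null libraries were higher, by a margin several times the replicate gap. The log2FC was 0.70 (SE 0.079, FDR 1.94e-09), or 1.62-fold, and stayed between 0.60 and 0.78 when each library was left out in turn. The part of LAMC3 in the summed γ FPKM was 5.16% and 5.64% in WT and 7.88% and 7.90% in Helz-null cells.

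LAMC1 (chr1:182992555-183114727, plus strand), whose product is in most known laminin trimers, had 272 and 279.9 CPM in WT and 302 and 292 CPM in Helz-null cells. Its Helz-null libraries were both higher, by little more than the gap between replicates. LAMC1 was called up-regulated close to the threshold (log2FC 0.10, SE 0.030, FDR 0.00409), a fold of 1.07. The call was lost with DESeq2 (adjusted p = 0.00801), with the filterByExpr genes (FDR 0.00795), and without WT replicate 1 (FDR 0.0218), Helz-null replicate 1 (FDR 0.129) or Helz-null replicate 2 (FDR 0.0105). In these fits the log2FC was 0.11, 0.10, 0.082, 0.080 and 0.13 in that order.

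LAMB2 (chr3:49158547-49170551, minus strand), the β2 chain of the glomerular and synaptic basement membrane, was the down-regulated laminin gene. It had 41.0 and 43.1 CPM in WT and 33.7 and 36.7 CPM in Helz-null cells. Both Helz-null libraries were lower than both WT libraries (log2FC -0.25, SE 0.053, FDR 0.000221), a fold of 0.842. The call was lost without Helz-null replicate 1, at a log2FC of -0.19. LAMB1, the β1 chain of most embryonic laminins, had 66.3 and 73.1 CPM in WT and 73.2 and 75.2 CPM in Helz-null cells. The highest WT value nearly met the lowest Helz-null value and LAMB1 was not called (log2FC 0.097, SE 0.043, FDR 0.0616). Without WT replicate 2 LAMB1 was called, at a log2FC of 0.17, and without WT replicate 1 the log2FC was 0.024. Among β chains the FPKM share of LAMB2 was 37.6% and 36.4% in WT and 30.8% and 32.1% in Helz-null cells. LAMB3, the β partner of the α3 chain in skin, was below the tested range at 1.70 and 2.10 CPM in WT and 2.20 and 2.31 CPM in Helz-null cells.

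Of the α chains, LAMA4 (chr6:112429134-112576141, minus strand), typical of vessel and muscle basement membranes, had 15.2 and 16.4 CPM in WT and 20.2 and 19.9 CPM in Helz-null cells. Its Helz-null values were the higher ones by more than the replicate gap. LAMA4 was up-regulated with a log2FC of 0.35 (SE 0.073, FDR 0.000163), or 1.27-fold, and was not called without WT replicate 1 (log2FC 0.29). LAMA4 gave 19.0% and 19.6% of the summed laminin α FPKM in WT and 24.7% and 23.6% in Helz-null cells.

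LAMA3, the epithelial α3 chain, had 23.3 and 22.6 CPM in WT and 19.5 and 20.6 CPM in Helz-null cells. The Helz-null libraries were both lower, but the FDR of 0.0169 missed the threshold (log2FC -0.19, SE 0.067). LAMA5, the α chain found in many adult basement membranes, had 39.2 and 39.8 CPM in WT and 37.4 and 36.8 CPM in Helz-null cells. These values did not overlap and LAMA5 was not called (log2FC -0.089, SE 0.051, FDR 0.161). LAMA1, the α chain of the early embryo, overlapped between groups at 28.4 and 31.9 CPM in WT and 29.3 and 32.7 CPM in Helz-null cells (log2FC 0.056, SE 0.062, FDR 0.49). Its sign turned without WT replicate 1 or Helz-null replicate 2. LAMA2, the α chain of muscle, had 64 and 34 counts in WT and 43 and 59 counts in Helz-null cells. Short exon overlaps with genes on the opposite strand were present at LAMA5 (118 bases, LAMA5-AS1) and LAMB1 (70 bases, DLD), and neither DLD (log2FC -0.059, FDR 0.125) nor LAMB1 was called.

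Summed by chain class, the laminin γ level was 36.4 and 37.6 FPKM in WT and 41.5 and 40.1 FPKM in Helz-null cells. The summed laminin α level (10.6 and 11.1 FPKM in WT, 10.8 and 11.2 in Helz-null cells) and the summed β level (18.8 and 20.4 FPKM in WT, 18.8 and 19.7 in Helz-null cells) overlapped between groups. For integrins, the summed β level was 65.2 and 67.8 FPKM in WT and 71.0 and 72.0 in Helz-null cells, and the summed α level was 44.5 and 45.5 FPKM in WT and 45.7 and 46.0 in Helz-null cells. No test was run on these sums.

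The position of the called members was described by the 20 nearest tested genes. LAMB2 lay among lower neighbours: 18 of its 20 neighbours had a log2FC below 0, 14 were down-regulated, 0 were up-regulated with edgeR, and their median log2FC was -0.24 beside -0.25 for LAMB2. Around LAMC1 8 of 20 neighbours were up-regulated and 1 was down-regulated, and the median was 0.11 beside 0.10 for LAMC1. With the neighbours' median taken away, LAMB2 stood at -0.0114 and LAMC1 at -0.0052. By contrast, the median was -0.0016 around LAMC3, -0.0024 around ITGA7, -0.027 around ITGB1, 0.034 around ITGA4 and 0.065 around ITGA8. LAMA4 rose while 16 of its 20 neighbours had a log2FC below 0 and the median was -0.074. The part of these neighbourhoods in the changes was not tested. The called members did not share a base composition: the GC content of the up-regulated coding sequences ranged from 41.3% (ITGB1) to 64.8% (LAMC3) and the down-regulated ITGA4 and LAMB2 had 42.5% and 60.2%.

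Genes that act with integrins and laminins were taken from 5 lists, of which the genes with the largest called changes and the most abundant gene are named. Their counts stand beside 13.9% up-regulated, 15.5% down-regulated and a median log2FC of -0.0009 among all tested genes. Of 47 integrin adaptors, which join β tails to actin and signalling, 34 were tested, with 11 up-regulated, 2 down-regulated and a median log2FC of 0.072. ZYX, the focal adhesion protein zyxin, had 124 and 125 CPM in WT and 187 and 186 CPM in Helz-null cells (log2FC 0.59, SE 0.032, FDR 1.68e-18). The median log2FC of its neighbours was 0.23. TNS3 (tensin 3, log2FC 0.39) and the kinase gene FYN (0.34) followed, and CRKL (an adaptor of phosphotyrosine signalling, -0.18) and FLNA (the actin cross-linker filamin A, -0.10) were down-regulated. TNS3 was above 2 FPKM in Helz-null cells only (1.96 and 1.99 FPKM in WT, 2.58 and 2.59 in Helz-null cells). RAP1B, a small GTPase that promotes integrin activation, was the most abundant adaptor at 78.6 FPKM and was not called (log2FC 0.0026, FDR 0.956). Outside this rule, and named after their values were seen, stood the kindlin genes. FERMT1 (kindlin-1) was not among the tested genes and had 4.19 and 3.93 CPM in WT and 0.968 and 0.904 CPM in Helz-null cells. Among the filterByExpr genes its log2FC was -2.13 (SE 0.20, FDR 1.3e-10), while FERMT2 (kindlin-2), at a mean of 20.5 FPKM, was up-regulated with a log2FC of 0.14 (FDR 0.00362). FERMT3 (kindlin-3), also outside the tested genes, was not called among the filterByExpr genes (log2FC -0.44, SE 0.35, FDR 0.357).

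Basement membrane partners of laminin had 12 of 21 genes tested, of which 7 were up-regulated and 2 down-regulated, with a median log2FC of 0.22. These include 2 genes whose mean was above 2 FPKM in Helz-null cells only, FREM2 (1.93 and 2.02 FPKM in WT, 2.58 and 2.25 in Helz-null cells), which was up-regulated, and FRAS1 (1.67 and 1.91 FPKM in WT, 2.16 and 1.92 in Helz-null cells), which was not called. AGRN, the proteoglycan agrin that binds laminin γ1, had 59.98 and 65.1 CPM in WT and 98.1 and 95.3 CPM in Helz-null cells (log2FC 0.63, SE 0.041, FDR 3.41e-16). COL4A2 (a collagen IV chain, log2FC 0.38) and NID2 (nidogen 2, which links laminin γ1 to collagen IV, 0.37) were also up-regulated. COL18A1 (collagen XVIII, log2FC -0.37) and NID1 (nidogen 1, -0.14) were down-regulated, NID1 being the most abundant partner at 38.2 FPKM and having neighbours with a median log2FC of -0.45. Of the other integrin ligands, 8 of 29 were tested, with 2 up-regulated, 2 down-regulated and a median of 0.17. EDIL3 (an αV ligand, log2FC 0.74) and LTBP1 (a carrier of latent TGF-β, 0.26) were up-regulated, and MFGE8 (an αV ligand, -0.25) was down-regulated among neighbours with a median of -0.35. EDIL3 was above 2 FPKM in Helz-null cells only (1.28 and 1.59 FPKM in WT, 2.35 and 2.39 in Helz-null cells). FN1, the fibronectin gene, had 43.0 and 41.0 CPM in WT and 33.8 and 33.7 CPM in Helz-null cells (log2FC -0.32, SE 0.052, FDR 3.55e-06).

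All 16 genes for laminin receptors and integrin partners outside the integrin family were tested, with 5 up-regulated, 2 down-regulated (beside 13.9% up and 15.5% down among all tested genes) and a median log2FC of 0.052. DAG1, which encodes dystroglycan, a receptor for laminin α chains, had 185 and 192 CPM in WT and 147 and 146 CPM in Helz-null cells (log2FC -0.36, SE 0.032, FDR 2.68e-12), with a median of -0.19 among its neighbours. SLC3A2, the β1-binding CD98 heavy chain, was down-regulated (log2FC -0.34), whereas SDC3 (syndecan 3, 0.50), BCAM (a receptor for laminin α5, 0.27) and CD63 (a tetraspanin, 0.26) were up-regulated. BSG (basigin) was the most abundant at 275 FPKM and was not called (log2FC 0.052, FDR 0.132). Laminin binding by dystroglycan depends on its sugar chains. Of 12 glycosylation genes 11 were tested, of which 1 was up-regulated and 5 were down-regulated (beside 13.9% up and 15.5% down among all tested genes), with a median log2FC of -0.11. B3GALNT2 (log2FC -0.55, with a neighbours' median of -0.43), POMK (-0.48) and POMT1 (-0.46) encode enzymes of the chain and were down-regulated, and B4GAT1, the most abundant at 56.5 FPKM, was up-regulated (0.22).

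**Figure D4:**
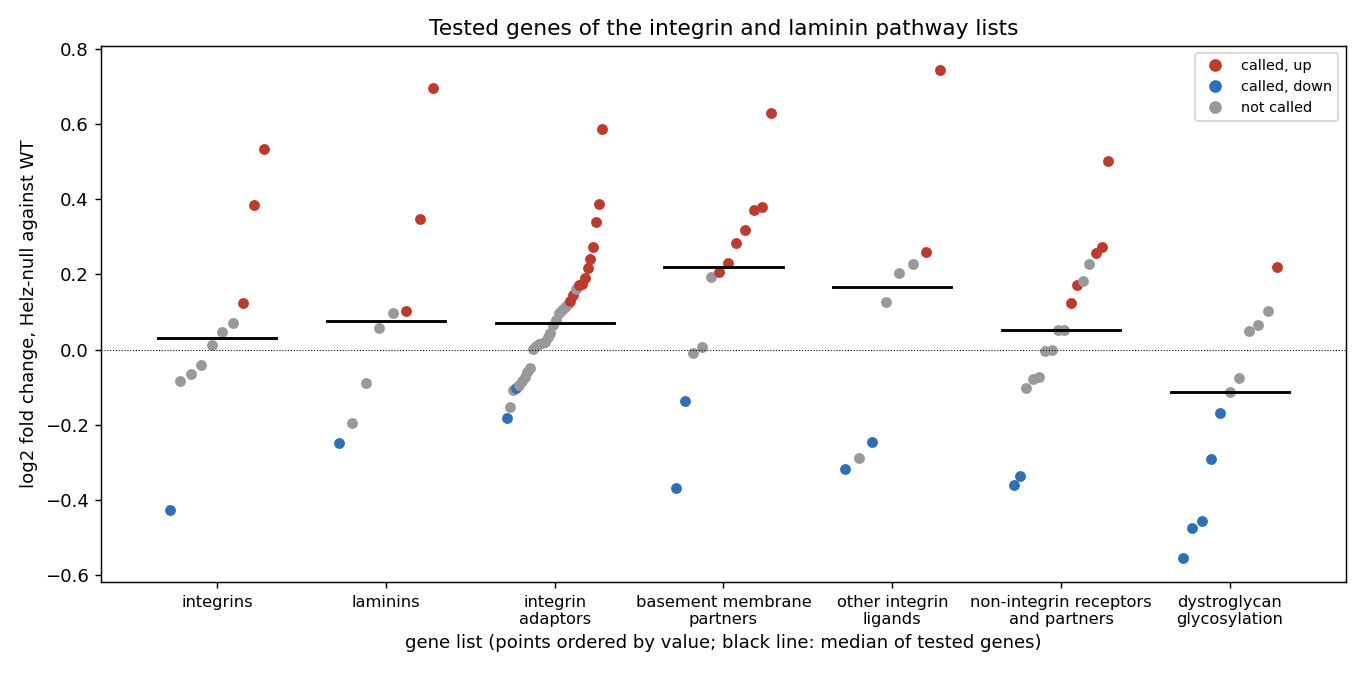
log2 fold change of Helz-null against WT cells for each tested integrin and laminin gene and each tested gene of the 5 lists, with red for up-regulated, blue for down-regulated, grey for not called and a black line for the median. Medians ranged from -0.11 for dystroglycan glycosylation to 0.22 for basement membrane partners.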

How the data were processed

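The authors prepared TruSeq libraries from total RNA, removed ribosomal reads with Bowtie2, mapped the paired reads to hg19 with TopHat2 and deposited raw counts per gene with a gene width, counted with QuasR. Tool versions, gene annotation, strand use and the way mates were counted were not given in the sources used here, although the totals leave room for mates counted separately. A deposited table of the authors' edgeR comparison (log fold changes, p-values, FDR) was used only for its list of 10978 genes.

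Counts were normalized by TMM and tested with edgeR 4.0.16 in R 4.3.3 (glmQLFit and glmQLFTest, Benjamini-Hochberg over 10978 genes, FDR threshold 0.005), comparing 2 Helz-null with 2 WT libraries. Standard errors were |log2FC| divided by the square root of F. CPM used the normalized library sizes of the tested genes, and FPKM divided CPM by the deposited width. The tested genes held 97.82% to 97.84% of each library, and the biological coefficient of variation was 2.6%. Positions and coding sequences came from the canonical transcripts of GENCODE release 44 mapped to GRCh37, the build called hg19 above. Current symbols placed 10379 of the tested genes and former symbols 517, while 82 had no position.

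Named were all 36 members, HELZ and, of each list, the 3 called genes with the largest absolute log2FC in each direction and the gene with the highest mean FPKM. Some results on the lists are not reported here. Members and lists were chosen with earlier results of these data known. Alternatives were DESeq2 1.42.0, library size only, RLE size factors, filterByExpr genes, genes with at least 1 count, genes with FPKM above 2 in a library, counts divided by 2, a replicate block, a test against a fold change of 1.2, FDR below 0.05, each library left out, and subtraction of the neighbours' median.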

Additional observations from a re-analysis of the deposited data

How the results depend on the processing

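Each of the 18 tested members kept its side of the threshold with library size only, RLE size factors, all genes with at least 1 count, genes with FPKM above 2 in a library and counts divided by 2. With at least 1 count, ITGA3 was also called, which gave 4 up-regulated integrins in place of 3. Library size only gave 2109 up-regulated and 1318 down-regulated genes in place of 1524 and 1701. The replicate block, with the replicate number as a term, gave 1677 and 1841 and changed no member call. The differences between replicates 1 and 2 were hardly correlated between WT and Helz-null cells (r = 0.034 across 10978 genes, which are not independent). Whether libraries with the same replicate number were handled together was not given in the sources used here. The test against a fold change of 1.2 asks for a larger change by its construction. It left 217 genes up-regulated and 318 down-regulated, and with edgeR 0 integrins in either direction (3 had an unadjusted p below 0.05), 1 laminin up and 0 down. For the lists it gave 1 up and 0 down each for integrin adaptors, basement membrane partners, other integrin ligands and the receptors and partners outside the integrin family, and 0 up and 2 down for dystroglycan glycosylation. With an FDR below 0.05, 2371 genes and 4 other integrin ligands were up-regulated and 2 laminins down-regulated. Integrin adaptors had 1 down-regulated gene with DESeq2 and 1 with library size only, and basement membrane partners 4 when all genes with at least 1 count were tested.

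Leaving out each library in turn gave 1 to 4 laminins up and 0 to 1 down, 1 to 2 integrin adaptors down, 1 to 2 basement membrane partners down, 1 to 3 other integrin ligands up and 2 to 6 receptors and partners outside the integrin family up. The log2FC of ITGA2 then ranged from -0.16 to 0.050, that of ITGA5 from -0.075 to 0.082 and that of LAMA1 from -0.033 to 0.14. Minus its neighbours' median, LAMC1 turned to -0.0052. The cause of these shifts was not tested. With 2 libraries a group, whether ITGB1, LAMC1, LAMB1, LAMA4 and LAMB2 were called depended on 1 library. This was not confined to the smallest changes, as the log2FC was 0.35 for LAMA4 and -0.25 for LAMB2 with all libraries.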

Other observations

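Genes of the 5 lists outside the tested genes were read in the filterByExpr fit with edgeR, and 3 called genes are named after their values were seen. NPNT, which encodes the α8 ligand nephronectin, had 7.29 and 8.76 CPM in WT and 5.64 and 5.15 CPM in Helz-null cells. Both Helz-null libraries were lower (log2FC -0.57, SE 0.12, FDR 0.000214), while ITGA8 was up-regulated. HSPG2, the gene for the basement membrane proteoglycan perlecan, had 13.3 and 13.5 CPM in WT and 18.4 and 16.8 CPM in Helz-null cells (log2FC 0.39, SE 0.076, FDR 0.000122). THBS1, the gene for the matrix protein thrombospondin-1, had 78 and 42 counts in WT and 14 and 35 counts in Helz-null cells (log2FC -1.39, SE 0.33, FDR 0.00111).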
